A study of Sus scrofa with 4 samples.

Results

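The genes described here are 10 components of the Notch pathway in pig cells: the receptors NOTCH1, NOTCH2 and NOTCH3, the ligands JAG1, JAG2 and DLL1, and the transcriptional targets HES1, HEY1, HEY2 and HEYL. They were taken by symbol from the 35670 genes listed for each library, and all 10 were found there. Notch is a contact signal between neighbouring cells. A ligand on one cell binds a receptor on the next, proteases of the ADAM family and then gamma-secretase cut the receptor, and its freed intracellular part enters the nucleus, where it joins the DNA-binding protein RBPJ and a coactivator of the MAML family. The HES and HEY genes are classic targets of this complex and encode basic helix-loop-helix repressors. In skin the pathway is best known in keratinocytes and blood vessels, and NOTCH3 is known as a receptor of the smooth muscle cells and pericytes around vessels.

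The RNA came from porcine fetal fibroblasts of skin origin (cell line PFFs), cells that serve as nuclear donors in pig cloning. The libraries of one group are labelled BRG1-overexpressed (2 libraries) and those of the other are controls of genotype WT (2 libraries); all 4 come from cells under serum starvation. BRG1, encoded by SMARCA4, is an ATPase of the BAF chromatin remodelling complex, and the series asks what more of it in donor cells does to chromatin and to cloned embryos. The name pTK-642 stands in the titles of both groups and is not explained in the sources used here, so whether the controls carry a vector is not known. Whether libraries of 1 group stem from separate cultures is not in the labels, so the p-values cover the spread between these 4 libraries, which may be technical.

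SMARCA4 itself did not rise under the BRG1 label. It stood at 159 and 163 CPM (a gene's share of the library's gene reads on a common scale, adjusted by TMM factors) in the libraries labelled BRG1, against 154 and 179 CPM in the controls. The groups overlapped, and the log2 fold change of -0.04 did not pass (95% interval -0.27 to 0.18; adjusted p = 0.765, edgeR). It turned to 0.18 when libraries were scaled by size alone and to 0.05 without control 2. It was -0.15 without control 1, a fit that carries no spread between controls. Taking out each library's trend with gene span made it pass as lower (-0.25, adjusted p = 0.0340, edgeR). This gene therefore does not check the label, and each direction given here sets the libraries labelled BRG1 over the controls.

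Gene counts summed to between 34684837 and 36238580 in the libraries labelled BRG1 and between 34486400 and 38126860 in the controls. In the libraries labelled BRG1, 10.3% and 10.5% of the reads listed were counted to no annotated feature, against 6.11% and 7.34% for the controls. The read counter is not named, so whether such reads lie in introns or outside genes is not known. Most of the defining fibroblast genes were abundant: 9 of 10 listed markers were found and all 9 were tested. FAP was low, at a mean of 10.8 CPM in the libraries labelled BRG1 and 3.61 CPM in the controls. The summed level of the 9 lay between 35337 and 35382 CPM in the libraries labelled BRG1 and between 24752 and 28057 CPM in the controls. The means of 6 markers were higher in the libraries labelled BRG1, and those of COL3A1, PDGFRB and VIM were lower. The 10 endothelial markers summed to between 21.1 and 21.9 CPM in the libraries labelled BRG1 and between 14.3 and 19.4 CPM in the controls, with TEK at 0 and 6 of the 10 below 1 CPM in every library. The 10 markers of smooth muscle and pericytes summed to between 270 and 285 CPM in the libraries labelled BRG1 and between 86.9 and 103 CPM in the controls, with ACTA2, which fibroblasts also express, at a mean of 142 CPM in the libraries labelled BRG1 and 6.57 CPM in the controls, and 2 of the 10 were below 1 CPM in every library. Of 9 keratinocyte markers found, KRT5, KRT1, KRT15 and IVL had 0 reads and the sum did not exceed 3.71 CPM in any library. Macrophage markers summed to between 46.4 and 46.5 CPM in the libraries labelled BRG1 and between 84.7 and 87.2 CPM in the controls, mostly CD14, with PTPRC and LYZ at 0. Melanocyte and Schwann markers, mostly MITF, summed to between 17.5 and 18.2 CPM in the libraries labelled BRG1 and between 9.28 and 9.59 CPM in the controls, and skeletal muscle markers did not exceed 0.892 CPM in any library. The part of other cell types in the results below was not tested. In bulk RNA, fewer cells that express a gene and less RNA per cell cannot be told apart.

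Of the 10 Notch genes, 9 had enough reads to be tested. In the libraries labelled BRG1, 5 of them fell: the receptor NOTCH1, the ligands JAG1 and DLL1, and the targets HEY1 and HEY2. NOTCH3 rose. NOTCH2, JAG2 and HES1 did not pass the test, and HEYL had no reads. Among all 14617 genes tested, 44.6% passed an adjusted p of 0.05 (quasi-likelihood test of edgeR, Benjamini-Hochberg adjusted), 21.0% as higher and 23.6% as lower, so a call on any one gene was common. The median log2 fold change over the 9 tested genes was -0.88, against 0.02 over all genes tested. The Notch genes were chosen with earlier results of these data known, so this contrast is no test of a shared shift. Scaling by total reads without TMM put the median of all genes at 0.24, and the split of calls was 2 higher and 5 lower among the Notch genes and 4819 higher and 2140 lower among all genes, against 1 and 5, and 3068 and 3444, with TMM. Over all genes, omitting library 1 labelled BRG1 left 1908 rises and 2177 falls, and omitting library 2 left 1979 rises and 2250 falls.

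**Figure D1:**
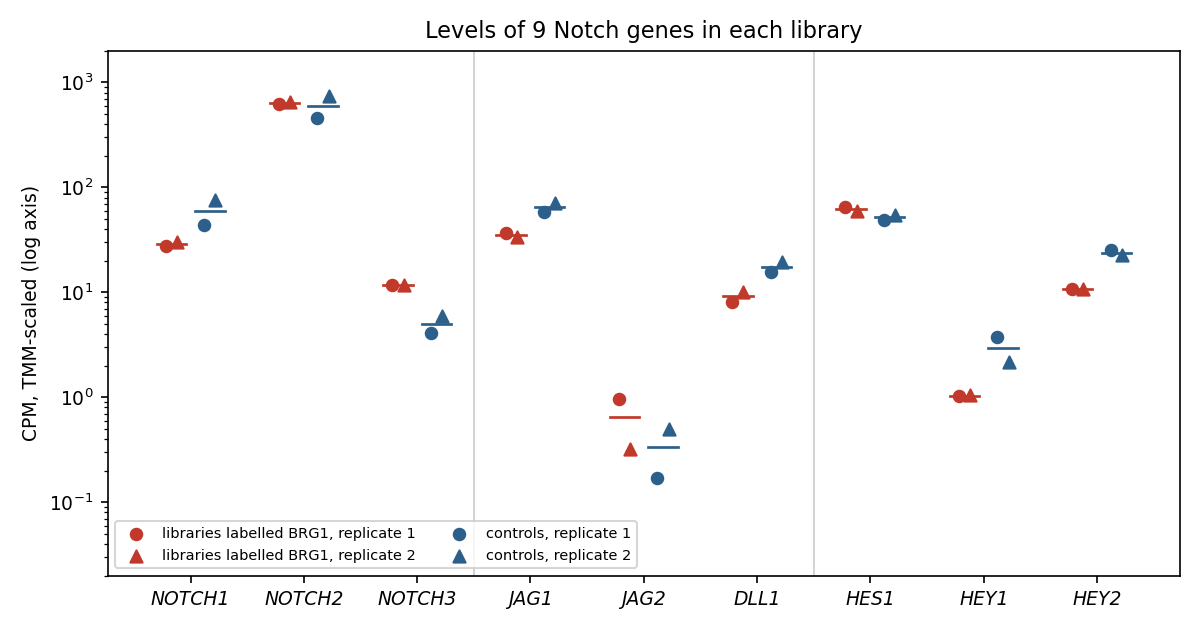
Level of each tested Notch gene in each library, in TMM-scaled CPM on a log axis; circles are replicate 1, triangles replicate 2, and lines the mean of 2 libraries, with the libraries labelled BRG1 in red at the left and the controls in blue at the right of each gene. The libraries labelled BRG1 lie below both controls for NOTCH1, JAG1, DLL1, HEY1 and HEY2 and above them for NOTCH3 and HES1; CPM does not correct for gene length, so heights are comparable within a gene and not between genes.

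The receptors moved apart. NOTCH1 (ENSSSCG00000038509; not placed on a chromosome in the RefSeq annotation of Sscrofa11.1), a receptor used across many tissues, stood at 27.5 and 29.9 CPM in the libraries labelled BRG1, against 44.2 and 75.1 CPM in the controls, from 1080, 1118, 1548 and 2413 reads in that order. Both libraries labelled BRG1 lay below both controls, and the controls lay far from each other. NOTCH1 fell 2.08-fold, a log2 fold change of -1.06 with an SE of 0.18 (edgeR, adjusted p = 0.000255). It was -0.64 without control 2 and -1.40 without control 1. A fit with 1 control carries no spread between controls, so only the values are given.

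NOTCH3 (ENSSSCG00000025176; chromosome 2, 62364507 to 62402348 in that annotation), the receptor of vascular smooth muscle and pericytes, went the other way. It stood at 11.7 CPM in both libraries labelled BRG1, from 460 and 437 reads, against 4.06 and 6.01 CPM in the controls, from 142 and 193 reads. The groups did not overlap, as was so for 73.2% of all genes tested. NOTCH3 rose 2.33-fold, a log2 fold change of 1.22 with an SE of 0.21 (edgeR, adjusted p = 0.000223), and 9.02% of genes tested rose further. Of the smooth muscle and pericyte markers, 4 of 9 tested rose, 0 fell and 5 did not pass. That is 44.4% called, all of them as higher. Among all genes tested 44.6% were called, 21.0% as higher and 23.6% as lower. The 4 that rose were ACTA2, at a mean of 142 CPM in the libraries labelled BRG1 and 6.57 CPM in the controls, CNN1 (23.2 and 4.74 CPM), ABCC9 (8.81 and 1.43 CPM) and CSPG4 (65.2 and 42.3 CPM). MYH11, a defining gene of mature smooth muscle, averaged 1.32 CPM in the libraries labelled BRG1 and 1.20 CPM in the controls. It did not pass (adjusted p = 0.842, edgeR). DES, KCNJ8, MCAM and SMTN did not pass either (log2 fold changes 0.63, 1.18, -0.02 and -0.09). RGS5 had at most 6 reads in a library and was not tested. The part of these cells in the value of NOTCH3 was not tested. The annotated span of NOTCH3 overlaps an uncharacterised locus, LOC100628051. How the counting treated strand is not stated, so reads from the overlap cannot be assigned.

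NOTCH2 (ENSSSCG00000006709; chromosome 4, 100951522 to 101152348) had by far the most reads of the Notch genes, between 15971 and 24325 per library. Its level was 620 and 643 CPM in the libraries labelled BRG1, against 456 and 740 CPM in the controls. The libraries labelled BRG1 thus lay between the controls, and the log2 fold change of 0.08 ± 0.17 (SE) did not pass (95% interval -0.27 to 0.43; adjusted p = 0.730, edgeR). The interval spans 0.83-fold to 1.35-fold. No direction can be given for this receptor, because each control on its own gave a value of opposite sign. The log2 fold change was -0.24 without control 1 and 0.45 without control 2, in fits that carry no spread between controls. With the trend with gene span removed the value was -0.23 (adjusted p = 0.168). This gene also shares its span with an uncharacterised locus, LOC102160224.

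All 3 receptors were higher in control 2 than in control 1. The ratio of their CPM was 1.70 for NOTCH1, 1.62 for NOTCH2 and 1.48 for NOTCH3, while the libraries labelled BRG1 differed by ratios of 1.08, 1.04 and 0.995 (library 2 over library 1). Only 3.32%, 4.67% and 10.9% of genes tested had a larger gap between the controls, on a log2 scale with 0.5 CPM added. Longer genes tended to be higher in control 2 than in control 1 (Spearman correlation of the signed log2 difference with genomic span 0.25 over 11328 genes with a known span, which share the same libraries). For library 2 minus library 1 labelled BRG1 that correlation was -0.04, and for the fold change between the groups it was 0.29. NOTCH2 spans 200.8 kb, NOTCH1 43.6 kb and NOTCH3 37.8 kb. The part of this trend in the receptors' gap was not tested.

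Ratios between receptors within a library cancel the scaling of that library. The log2 ratio of NOTCH3 to NOTCH1 reads was -1.23 and -1.36 in the libraries labelled BRG1, against -3.45 and -3.64 in the controls. The controls lay close together in this ratio although each receptor on its own differed between them. The ratio was higher by 2.25 in the libraries labelled BRG1, with no overlap, and that of NOTCH2 to NOTCH1 by 1.13 (mean 4.46 against 3.33). An exact permutation test, two-sided, gave p = 0.333 for both, the smallest that 2 against 2 libraries allow. The summed level of the 3 receptors, mostly NOTCH2, was 659 and 685 CPM in the libraries labelled BRG1, against 504 and 821 CPM in the controls. These groups overlapped (exact permutation p = 1), and the mean difference of 0.06 on the log2 scale turned to -0.29 without control 1 and was 0.41 without control 2.

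**Figure D2:**
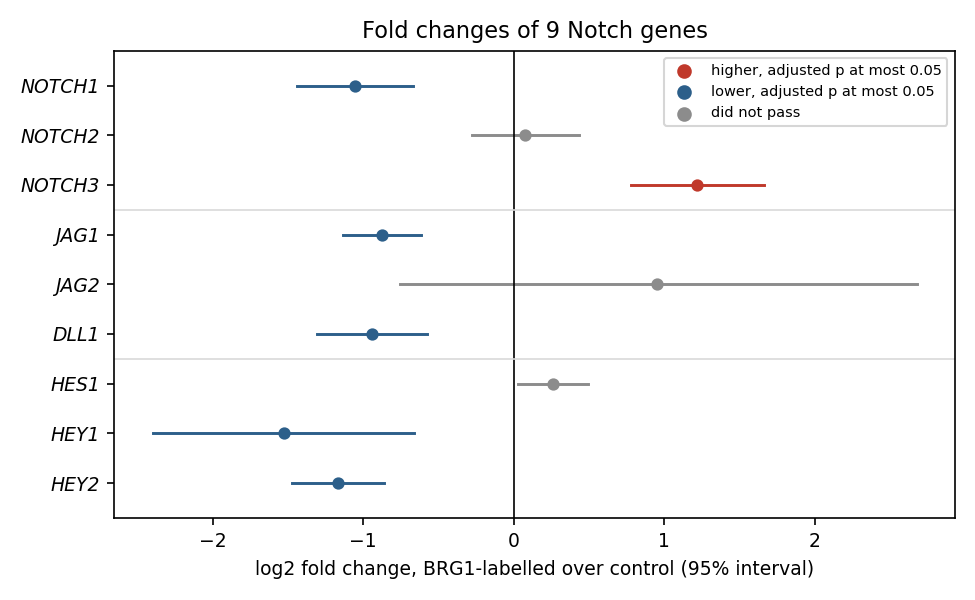
Log2 fold change (BRG1-labelled over control) of the 9 tested Notch genes, with 95% intervals from the edgeR fit over 4 libraries; red marks genes higher and blue genes lower at an adjusted p of at most 0.05, grey those that did not pass. NOTCH3 lies at 1.22 and NOTCH1 at -1.06 with intervals apart from 0, JAG1 lies at -0.88 and DLL1 at -0.94, and HES1 lies at 0.26 while HEY1 and HEY2 lie below -1.

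The ligands with ample reads fell together. JAG1 (ENSSSCG00000007067; chromosome 17, 19591248 to 19629659), a membrane ligand of the Jagged type, stood at 36.4 and 33.6 CPM in the libraries labelled BRG1, against 57.8 and 70.7 CPM in the controls. Both libraries labelled BRG1 lay below both controls. JAG1 fell 1.84-fold, a log2 fold change of -0.88 with an SE of 0.12 (edgeR, adjusted p = 3.52e-05). Without each library in turn the value lay between -1.02 and -0.74.

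DLL1 (ENSSSCG00000027726; chromosome 1, 198815 to 211346), a ligand of the Delta type, stood at 8.16 and 10.1 CPM in the libraries labelled BRG1, against 15.6 and 19.6 CPM in the controls. The groups did not overlap here either. DLL1 fell 1.92-fold, a log2 fold change of -0.94 with an SE of 0.17 (edgeR, adjusted p = 0.000399), and the value lay between -1.11 and -0.79 when each library was left out in turn. The log2 ratio of JAG1 to DLL1 reads was 2.16 and 1.73 in the libraries labelled BRG1, against 1.89 and 1.86 in the controls, and the groups overlapped.

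JAG2 (ENSSSCG00000002555; not placed on a chromosome), the other Jagged ligand, was barely detected, with 38 and 12 reads in the libraries labelled BRG1 and 6 and 16 reads in the controls. That is 0.968 and 0.320 CPM in the libraries labelled BRG1, against 0.171 and 0.498 CPM in the controls. The groups overlapped, and the difference did not pass (log2 fold change 0.95, 95% interval -0.76 to 2.68; adjusted p = 0.354, edgeR). It turned to -0.05 without library 1 labelled BRG1. It was 0.37 without control 1 and 1.88 without control 2. The summed level of the 3 ligands was 45.5 and 44.1 CPM in the libraries labelled BRG1, against 73.6 and 90.8 CPM in the controls, a difference of -0.87 on the log2 scale without overlap (exact permutation p = 0.333, the smallest possible).

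The targets did not move as one. HEY2 (ENSSSCG00000004223; chromosome 1, 37219887 to 37231321), a repressor known from heart and artery development, had the smallest adjusted p of the Notch genes. It stood at 10.7 CPM in both libraries labelled BRG1, from 418 and 399 reads, against 25.0 and 22.8 CPM in the controls, from 877 and 731 reads. The gap between the groups was several times the gap within either. HEY2 fell 2.24-fold, a log2 fold change of -1.17 with an SE of 0.14 (edgeR, adjusted p = 1.16e-05), and 5.69% of genes tested fell further. Without each library in turn it lay between -1.25 and -1.10.

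HEY1 (ENSSSCG00000006159; chromosome 4, 56859640 to 56863807), its close relative, had few reads: 40 and 39 in the libraries labelled BRG1, and 132 and 70 in the controls. Its level was 1.02 and 1.04 CPM in the libraries labelled BRG1, against 3.77 and 2.18 CPM in the controls. The groups did not overlap, and the controls differed from each other more than for HEY2. HEY1 fell by 1.53 on the log2 scale with an SE of 0.41 (edgeR, adjusted p = 0.00654). The size of the fall depended on the control kept. It was -1.09 without control 1 and -1.88 without control 2, in fits that carry no spread between controls.

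HES1 (ENSSSCG00000031356; chromosome 13, 131135970 to 131137865), a target with a rapid and often oscillating response to Notch, went against the HEY genes in the direction of its values. It stood at 65.3 and 59.2 CPM in the libraries labelled BRG1, against 49.2 and 54.8 CPM in the controls, from 2562, 2218, 1723 and 1760 reads. Both libraries labelled BRG1 lay above both controls, by a margin no wider than the gap within a group. The log2 fold change of 0.26 ± 0.11 (SE; 95% interval 0.03 to 0.49) did not pass after adjustment (adjusted p = 0.0659, edgeR). It lay close to the threshold and passed as higher when libraries were scaled by size alone (0.49, adjusted p = 0.00246, edgeR). It also passed with only genes of at least 1 CPM in 2 libraries (0.28, adjusted p = 0.0456, edgeR). So it did in the fit on genes with a known span (0.29, adjusted p = 0.0375, edgeR). Once the span trend was taken out it passed at 0.64 (adjusted p = 0.000163, edgeR). Without control 2 it passed as well (0.32), in a fit that carries no spread between controls. It did not pass in the other 8 alternatives (adjusted p between 0.0609 with the replicate block and 0.511 without library 1 labelled BRG1). HES1 spans 1.90 kb.

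HEYL (ENSSSCG00000038956; chromosome 6, 95442655 to 95459597), the remaining HEY gene, had 0 reads in every library. A count of 0 allows up to 3 reads, or 0.0765 and 0.0801 CPM in the libraries labelled BRG1 and 0.0857 and 0.0934 CPM in the controls. This limit covers counting error only and holds for reads assigned to this gene model. Whether the model collects reads in the annotation used was not checked here, and HEYL was not tested for a difference.

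The unequal change of HES1 and the HEY genes was larger than the spread of their ratios within groups. The log2 ratio of HES1 to HEY2 reads was 2.62 and 2.47 in the libraries labelled BRG1, against 0.97 and 1.27 in the controls, a difference of 1.42. That of HES1 to HEY1 was 6.0 and 5.83 in the libraries labelled BRG1, against 3.71 and 4.65 in the controls. Neither ratio overlapped between groups, and both gave the smallest exact permutation p of 0.333. For HEY1 to HEY2 the log2 ratio was -3.39 and -3.35 in the libraries labelled BRG1, against -2.73 and -3.38 in the controls, and these overlapped. The summed level of the targets, mostly HES1, was 77.0 and 70.9 CPM in the libraries labelled BRG1, against 78.0 and 79.7 CPM in the controls. Its difference of -0.09 on the log2 scale was 0.13 when libraries were scaled by size alone (exact permutation p = 0.333 with TMM).

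**Figure D3:**
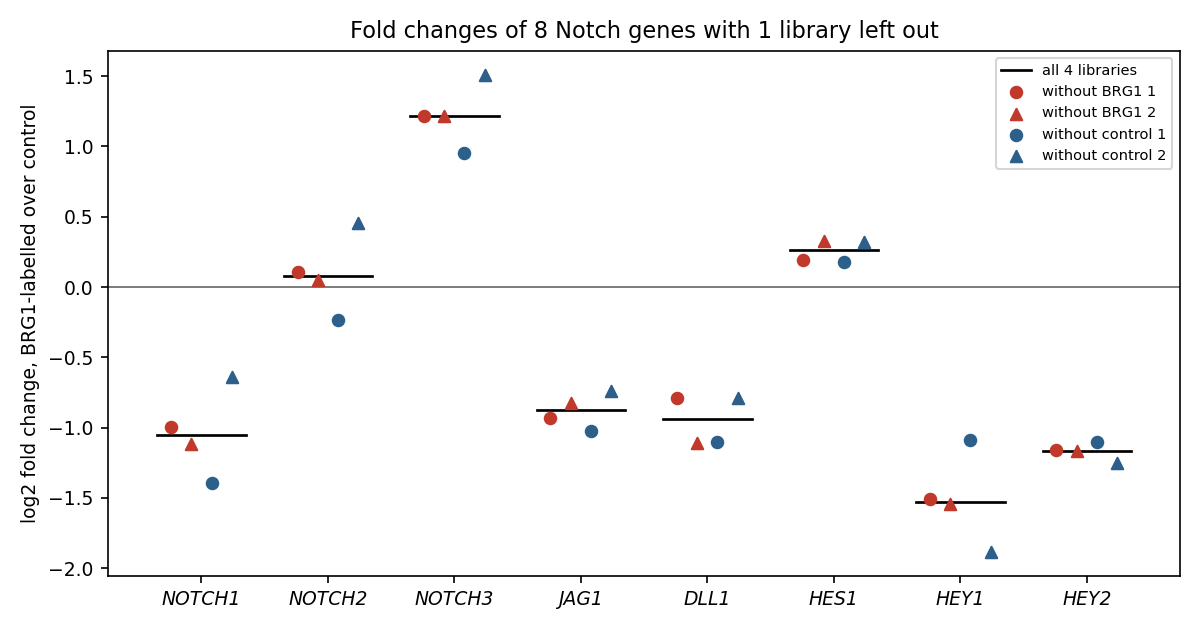
Log2 fold change (BRG1-labelled over control) of 8 tested Notch genes with all 4 libraries (black line) and with 1 library left out (points; red without a library labelled BRG1, blue without a control). Leaving out a control moved NOTCH1 between -1.40 and -0.64 and NOTCH2 across 0, while HEY2 stayed between -1.25 and -1.10; JAG2, with few reads, is not shown and ranged from -0.05 to 1.88.

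The genes whose pattern lay closest to that of HEY2 over the 4 libraries were TIMM10B, LAMTOR1, HSP70.2, BOLA1 and SNRPD2. Closeness was the root mean square distance between log2 CPM values centred on each gene's mean, and it lay between 0.0167 and 0.0265. TIMM10B, the closest, averaged 13.3 ± 0.05 CPM in the libraries labelled BRG1 and 30.2 ± 2.56 CPM in the controls (SD, n = 2 each). With 4 libraries and 23.6% of genes tested called lower, many genes share such a pattern.

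The rest of the pathway was described from a list of 65 further genes sorted by known role. Of these, 64 were found and 56 tested, and 18 rose and 12 fell, which is 53.6% of those tested against 44.6% of all genes. Their median log2 fold change was 0.08. With scaling by library size alone 24 rose and 7 fell, and without library 2 labelled BRG1 13 rose and 6 fell. In this account a value after ± is an SE where it follows a log2 fold change. Genes named from this list are up to 3 per role with the smallest adjusted p. RBPJ, the MAML genes, MFAP5, HDAC1, TLE3 and TLE4 were added after their values were seen. So were AAK1, FBXW7, ITCH, HES5, HES6 and NRARP.

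Among further receptors, ligands and proteins reported to bind Notch, 3 of 6 tested rose and 1 fell, which is 66.7% against 44.6% of all genes. The one that fell was DLL4, the Delta ligand of arterial and sprouting endothelium. It stood at 1.43 and 2.06 CPM in the libraries labelled BRG1, against 7.60 and 9.15 CPM in the controls, from 56, 77, 266 and 294 reads. Both libraries labelled BRG1 lay far below both controls, with a log2 fold change of -2.26 and an SE of 0.26 (edgeR, adjusted p = 6.37e-06). Of the endothelial markers, whose sum is given above and is mostly EGFL7, PECAM1 rose to a mean of 6.67 CPM in the libraries labelled BRG1, against 2.86 CPM in the controls. VWF averaged 0.717 CPM in the libraries labelled BRG1 and 1.75 CPM in the controls and did not pass (adjusted p = 0.0561, edgeR). CDH5, KDR and EMCN had 0 reads in the libraries labelled BRG1 and at most 6 reads in a control, and TEK had 0 in all. The part of endothelial cells in the value of DLL4 was not tested. MFAP2, a microfibril protein, rose to 128 and 133 CPM in the libraries labelled BRG1, against 43.3 and 46.8 CPM in the controls. CNTN1, a neural adhesion protein, rose from low counts: 97 and 53 reads in the libraries labelled BRG1, and 10 and 3 reads in the controls (log2 fold change 3.32 ± 0.65, adjusted p = 0.000765, edgeR). The third was MFAP5, another microfibril protein, with 15 and 13 reads in the libraries labelled BRG1 and 2 and 1 reads in the controls (2.94 ± 1.09, adjusted p = 0.0343, edgeR). Its call was lost without any 1 of the 4 libraries (adjusted p between 0.139 and 0.241), without a filter on low counts (0.160), in DESeq2 (0.127) and with the replicate block (0.0704), and it was not tested at 1 CPM in 2 libraries. In each of these cases 2 genes of the list rose.

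Of 9 genes for receptor cleavage 1 rose and 4 fell. That is 55.6% called, against 44.6% of all genes, of which 21.0% rose and 23.6% fell. FURIN, the convertase that cuts the receptor precursor in the Golgi, stood at 203 and 210 CPM in the libraries labelled BRG1, against 437 and 502 CPM in the controls (log2 fold change -1.19 ± 0.11, adjusted p = 6.35e-07, edgeR). ADAM17, a surface protease that can cut Notch, fell by 0.58 ± 0.12 on the log2 scale, or by 0.36 with scaling by library size alone. APH1B, a gamma-secretase subunit, rose by 0.66 ± 0.13, a value of 0.33 with the trend with gene span removed. The falls numbered 2 when either library labelled BRG1 was omitted and 2 when libraries were scaled by size alone.

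Enzymes that put sugars on the receptors rose in 3 of 5 tested genes, and 0 fell, so that 60% were called; among all genes 44.6% were called and 21.0% rose. LFNG, the Fringe enzyme that lengthens O-fucose on Notch and shifts its response between Delta and Jagged ligands, stood at 34.9 and 38.7 CPM in the libraries labelled BRG1, against 9.25 and 12.4 CPM in the controls. The groups lay well apart, with a log2 fold change of 1.77 ± 0.16 (SE; adjusted p = 4.15e-07, edgeR). EOGT, which adds O-linked GlcNAc to the same kind of repeats, stood at 27.8 and 29.0 CPM in the libraries labelled BRG1, against 9.65 and 9.12 CPM in the controls (1.60 ± 0.14, adjusted p = 4.47e-07, edgeR). POGLUT1, the O-glucosyltransferase, rose by 0.65 ± 0.14. Without control 1 or control 2, 1 gene of this list fell. The span of LFNG overlaps those of CHST12 and GRIFIN in the RefSeq annotation, so its reads are less certain. The same holds for ADAM17 with IAH1, APH1B with CA12, DTX2 with UPK3B and MAML3 with MGST2. The spans of CNTN1, MIB2, ITCH, AAK1, RBPJ, MAML1 and MAML2 overlap loci named only by a LOC number, and that of AAK1 also TRNAE-UUC.

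Of 15 tested genes for endocytosis and ubiquitin transfer, which activate ligands or remove receptors, 3 rose and 3 fell, which is 40% against 44.6% of all genes. The split was 0 and 5 with the span trend removed, 5 and 1 with scaling by library size alone, and 0 and 3 in DESeq2. The rises were those of AAK1 (0.36 ± 0.13), FBXW7 (0.43 ± 0.16) and ITCH (0.28 ± 0.11). They passed narrowly (adjusted p = 0.0339, 0.0387 and 0.0454, edgeR). MIB2, a ubiquitin ligase for ligands, fell by 0.59 ± 0.10 on the log2 scale, or by 0.37 with scaling by library size alone. EPN1, an endocytic adaptor, fell by 0.43 ± 0.10 and DTX2, a Deltex ubiquitin ligase, fell by 0.52 ± 0.14. Neither passed with scaling by library size alone (adjusted p = 0.107 and 0.0992) or without library 2 labelled BRG1 (adjusted p = 0.0908 and 0.116), nor did EPN1 without library 1 (adjusted p = 0.139). The rises numbered 0 when either library labelled BRG1 was omitted, 1 without control 1 and 5 without control 2, and the falls numbered 1 without library 2 labelled BRG1.

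In the nucleus, 8 of 18 tested genes for the transcription complex and its corepressors rose and 2 fell. That is 55.6% called, against 44.6% of all genes, of which 21.0% rose and 23.6% fell. RBPJ, the DNA-binding partner of all Notch receptors, stood at 50.2 and 45.9 CPM in the libraries labelled BRG1, against 35.1 and 33.7 CPM in the controls (log2 fold change 0.48 ± 0.11, adjusted p = 0.00294, edgeR). Its coactivators MAML1, MAML2 and MAML3 rose by 0.35 ± 0.12, 0.78 ± 0.16 and 1.04 ± 0.20. RBPJ and MAML1 lost the call with the trend with gene span removed (0.13 and 0.22; adjusted p = 0.344 and 0.108) and without library 1 labelled BRG1 (adjusted p = 0.120 and 0.325), and MAML1 also without library 2 (adjusted p = 0.0998). MAML2 was at 0.39 and MAML3 at 0.64 with that trend removed, and MAML3 at 0.69 without control 1.

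KAT2B, a histone acetyltransferase that the complex can recruit, stood at 22.8 and 23.98 CPM in the libraries labelled BRG1, against 7.77 and 9.31 CPM in the controls (1.46 ± 0.15, adjusted p = 2.47e-06, edgeR). The Groucho-type corepressors TLE1 and TLE2, partners of HES proteins, rose by 1.25 ± 0.15 and 1.18 ± 0.13. Their relative TLE3 fell by 0.51 ± 0.12 (adjusted p = 0.00394, edgeR), and TLE4 did not pass (-0.31 ± 0.14; adjusted p = 0.0933, edgeR). TLE3 lost its call with scaling by library size alone (-0.28; adjusted p = 0.0802) and without library 2 labelled BRG1 (adjusted p = 0.0596), and it was -0.32 without control 2. TLE4 passed as lower once the span trend was taken out (-0.59), and it was -0.42 without control 1. The other fall was that of HDAC1, a histone deacetylase of corepressor complexes, at -0.60 ± 0.10 (adjusted p = 0.000194, edgeR), or -0.38 with scaling by library size alone. The falls in this list numbered 6 without control 1, 4 without control 2 and 1 without library 2 labelled BRG1. With the trend with gene span removed, 5 genes rose and 4 fell.

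**Figure D4:**
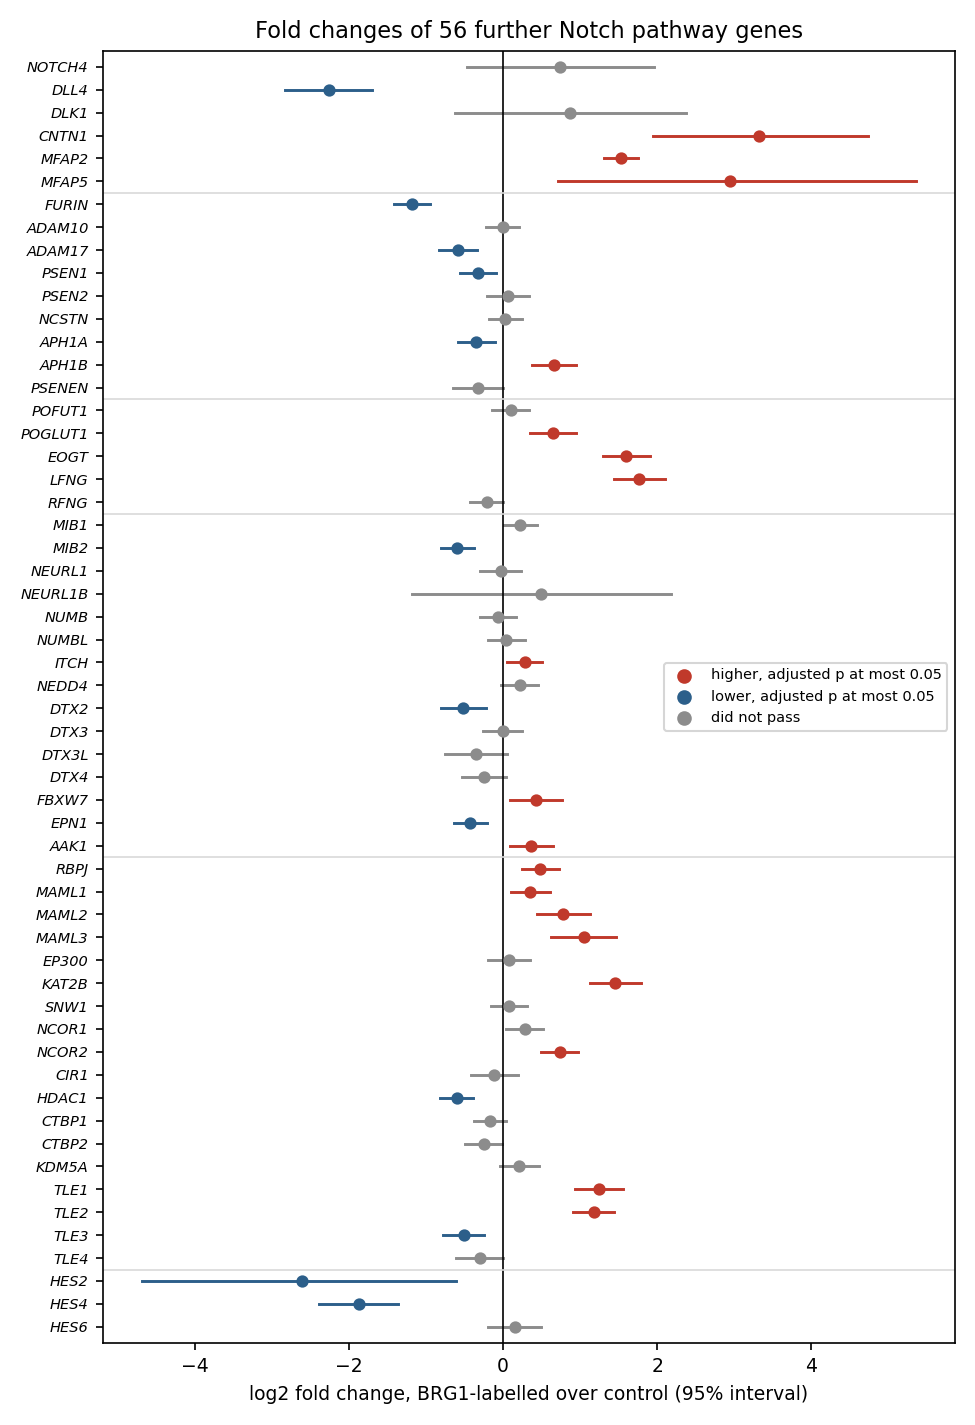
Log2 fold change (BRG1-labelled over control) of 56 further Notch pathway genes with 95% intervals, in blocks from top to bottom: receptors and ligands, cleavage, glycosylation, endocytosis and ubiquitin, nuclear complex, further HES genes; red marks 18 genes higher and blue 12 lower at an adjusted p of at most 0.05. DLL4 at -2.26 and HES4 at -1.87 lie far to the left, and LFNG at 1.77 and EOGT at 1.60 to the right.

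Of the further HES genes and NRARP, a feedback inhibitor, 7 were listed and 3 had enough reads to be tested. Of these 3 genes, 2 fell, which is 66.7% called, against 44.6% of all genes. HES4, a HES gene that mice lack, stood at 2.55 and 2.06 CPM in the libraries labelled BRG1, against 7.57 and 9.34 CPM in the controls, from 100, 77, 265 and 300 reads. The groups did not overlap, with a log2 fold change of -1.87 and an SE of 0.24 (edgeR, adjusted p = 1.82e-05). HES2 had 1 and 6 reads in the libraries labelled BRG1 and 24 and 15 reads in the controls (-2.61 ± 0.95, adjusted p = 0.0345, edgeR). Its call was lost without any 1 of the 4 libraries (values from -4.32 to -1.82, adjusted p between 0.0608 and 0.338), without a filter on low counts, in DESeq2 and once the span trend was taken out. HES6, the remaining gene tested, averaged 13.5 CPM in the libraries labelled BRG1 and 12.2 CPM in the controls. It did not pass (log2 fold change 0.15 ± 0.16, adjusted p = 0.479, edgeR). NRARP had 2 and 1 reads in the libraries labelled BRG1 and 1 and 10 reads in the controls, and was not tested. HES5 had 0 reads in all libraries.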

How the data were processed

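The submitters' processing notes name the build Sscrofa11.1 and the tools STAR, Cufflinks, SAMtools, FastQC, edgeR and DESeq2, with no read counter, strand setting or annotation release. The authors deposited raw counts for each Ensembl gene, with a file for every library; per the labels' protocols RNA was extracted with trizol. Rows that name no gene stayed out of library sizes and tests.

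Fits used R 4.3.3 and edgeR 4.0.16: filterByExpr (minimum count 10, minimum total 15), TMM scaling, the quasi-likelihood F test of group, prior count 0.125, and Benjamini-Hochberg adjustment over all 14617 genes tested (threshold 0.05). Each SE was the fit's unshrunk log2 estimate over the square root of its F statistic. The fit was also run on simulated counts with the same spread in both groups. That run does not cover the unequal spread of these groups. Replicates differed by more than counting noise (chi-square per degree of freedom 5.33 for the libraries labelled BRG1 and 38.3 for controls). Symbols missing from the files were taken from a name table (223 genes). Spans came by symbol from RefSeq and were found for 77.5% of genes tested. The "trend with gene span removed" subtracts each library's smooth trend of log2 CPM with span. Exon lengths and sequences were not used here, so levels are not compared between genes.

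The members and lists were chosen with earlier results of these data known. Named further genes are the 3 with the smallest adjusted p of each role, plus genes said to be added. Alternatives were other scalings and filters, DESeq2 1.42.0, limma-voom (limma 3.58.1), the replicate number as a block, removal of the span trend and each library left out in turn; a fit on genes with a span, trend kept, was chosen after seeing the data.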

Additional observations from a re-analysis of the deposited data

Results flagged for a closer look

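Reads counted to no annotated feature enter no comparison. They were more frequent in the libraries labelled BRG1, at 10.4% ± 0.19 of the reads listed, against 6.73% ± 0.87 in the controls (SD, n = 2 each). Whether they lie in introns or outside genes is not known.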

How the results depend on the processing

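The 5 falls and the rise of NOTCH3 kept their direction under every alternative run. All 6 passed in each alternative that kept all 4 libraries. HEY1 was at -1.09 without control 1 and at -1.88 without control 2. Scaling by library size alone gave 4819 genes higher and 2140 lower, 2 Notch genes higher, 7 further pathway genes lower, SMARCA4 at 0.18, the ligand sum at -0.64 and the target sum at 0.13. Notch genes called higher also numbered 2 with at least 1 CPM in 2 libraries, with the span trend removed and on genes with a span, HES1 being the added one. Removing the span trend gave SMARCA4 at -0.25, NOTCH2 at -0.23 and a median of all genes of -0.048. The cause was not tested for any of these.

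Leaving out 1 library at a time gave 1908 to 3673 genes higher and 2177 to 4321 lower, 1 to 3 Notch genes higher, and 6 to 16 further pathway genes lower. SMARCA4 ranged from -0.15 to 0.048, NOTCH2 from -0.24 to 0.45, JAG2 from -0.054 to 1.88, and the receptor sum from -0.29 to 0.41. In these fits the lone library of a group is assumed to vary like the other group.

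The shared replicate numbers gave no sign of pairing: same-numbered deviations correlated at -0.04. With 1 difference per group, this cannot show whether libraries were prepared in pairs. With the replicate block 3189 genes were higher and 3505 lower, 1 Notch gene was higher and 5 were lower, and SMARCA4 stood at -0.04. JAG2, HEY1, HES2 and MFAP5 rest on few reads, and HEYL had none.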
